A study of Drosophila melanogaster with 54 samples.

Results

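This account covers 10 genes of the ecdysone response in heads of Drosophila melanogaster, chosen by symbol from a table of read counts: EcR, usp, Eip74EF, Eip75B, Eip71CD, ftz-f1, Hr38, Hr39, Hr46 and br. All 10 were found among the 16719 genes of the table, and all 10 were among the 9056 genes with enough reads to be tested. The label of the set, ecdysone receptor and nuclear receptor genes, holds for 7 of them. Eip74EF and br encode transcription factors of other families, and Eip71CD carries the name MsrA, a methionine sulfoxide reductase, in the RefSeq gene table.

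The study developed methods that mark transcript ends in fly heads, and also held a 2-factor experiment on BEAF-32, an insulator protein that binds chromatin domain borders, in which polyA RNA of heads was read by 3′ RNA-seq to ask about its part in the response to warmth. Its 12 libraries fell into 4 groups of 3: BEAF-32 knockdown at 29 °C, control at 29 °C, knockdown at 18 °C and control at 18 °C. Knockdown flies carried a UAS-RNAi transgene against BEAF-32 driven by actin5C-gal4, a driver active in most tissues, and control flies, labelled as wild type, carried actin5C-gal4 without the transgene, so both genotypes had the driver. The strain was given as YW for both. All flies were reared at 25 °C and spent 3 days as young adults at the tested temperature under a cycle of 12 h light to 12 h dark. Heads were taken whole, so a lower level can mean fewer cells of a type or less RNA per cell, and these cannot be told apart. Neither the sex of the flies, the number of heads per library nor the time of day of collection was stated for these libraries, and no label states separate cultures for the libraries of a group. The p-values therefore measure only how much these samples varied, part of which may be technical.

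Ecdysone is the steroid moulting hormone of insects, and its active form, 20-hydroxyecdysone, binds a heterodimer of 2 nuclear receptors, the ecdysone receptor EcR and the RXR homologue Ultraspiracle (usp). The bound receptor turns on early genes, among them Eip74EF, Eip75B and br, whose products are transcription factors that switch on or hold back later genes. Hr46 (also called Hr3), ftz-f1 and Hr39 encode orphan-type receptors, of which Hr46 and ftz-f1 act in sequence during metamorphosis. Hr38 encodes the NR4A receptor of the fly, which can pair with Usp and whose transcript is induced in active neurons. In adult flies the hormone is known to act in reproduction, sleep, memory and stress responses.

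Total counts ran from 2905211 to 7146191 per library. BEAF-32 transcripts checked the labels, with 0.516 to 3.50 CPM (counts per 1000000, scaled by the TMM method) in the 6 knockdown libraries, against 32.2 to 39.1 CPM in the 6 control libraries. Neuronal and photoreceptor markers were abundant, while the summed ovary markers reached at most 0.337 CPM. Several marker lists moved with temperature. The male dosage compensation RNA roX2 was higher at 29 °C, by 2.47 on the log2 scale in knockdown heads (edgeR adjusted p = 2.17e-05) and by 2.66 in control heads (edgeR adjusted p = 2.9e-06). The female-biased gene fit was lower, with log2 fold changes of -1.81 in knockdown heads and -2.62 in control heads (edgeR adjusted p = 2.35e-06 and 3.71e-08). The other listed female-biased genes did not all go that way. Of the 4, 2 fell and 0 rose in knockdown heads, and 2 fell and 1 rose in control heads. The raised one was Yp1 (log2 fold change 0.87, edgeR adjusted p = 9.74e-04), and Yp3 passed in neither genotype. The neuronal marker elav was higher by 0.80 in knockdown heads and by 0.58 in control heads (edgeR adjusted p = 2.7e-06 and 7.74e-05). Of the 5 neuronal markers 2 rose in each genotype. All 5 muscle markers were lower at 29 °C in both genotypes, summing to 1599 to 1774 CPM in knockdown heads at 29 °C against 3056 to 3103 CPM at 18 °C, and to 1667 to 1931 CPM in control heads at 29 °C against 2669 to 3748 CPM at 18 °C. Of 5 glial markers, 4 fell in knockdown heads and 3 in control heads. Of 5 photoreceptor markers, 3 rose and 1 fell in knockdown heads, and 3 rose and 2 fell in control heads. Of 4 tested fat body markers, fat-spondin rose and Lsp2 fell in both genotypes. The log2 fold changes of Lsp2 were -1.08 in knockdown heads and -3.60 in control heads (edgeR adjusted p = 0.013 and 1.04e-07). Antennal markers moved mostly in knockdown heads, where all 5 were lower at 29 °C. In control heads only the antennal marker Obp28a fell (log2 fold change -1.68, edgeR adjusted p = 0.0208). Antennal marker sums were 3.03 to 5.41 CPM in knockdown heads at 29 °C and 4.99 to 29.6 CPM in control heads at 29 °C. At 18 °C they were 24.3 to 189 CPM in knockdown heads and 8.31 to 22.1 CPM in control heads. The part of these markers in the results below was not tested.

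Of the 10 genes 5 differences passed in 4 comparisons, in EcR, Eip75B (in 2 comparisons), Hr46 and Eip71CD. With edgeR's quasi-likelihood test, Benjamini-Hochberg adjustment over all 9056 genes and a threshold of 0.05, warmth changed 3 of the 10 in knockdown heads, with 1 higher and 2 lower, where 35.5% of all tested genes passed (16.6% higher and 18.9% lower). In control heads warmth changed 1 of the 10, upward, where 38.0% of all genes passed (18.2% higher and 19.8% lower). Knockdown at 18 °C changed 1 of the 10, upward, with 14.1% of all genes passing (6.63% higher and 7.50% lower). Knockdown at 29 °C changed 0 of the 10 by edgeR and 0 by DESeq2, with 1 at an unadjusted p under 0.05, where 14.7% of all genes passed (7.14% higher and 7.56% lower). The median log2 fold change of the 10 was -0.04 for warmth in knockdown heads, 0.15 for warmth in control heads, -0.08 for knockdown at 29 °C and 0.07 for knockdown at 18 °C, and that of all tested genes lay between -0.01 and 0.01.

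These counts lie near or below the shares over all genes, and with 10 genes they do not show a response unlike that of other genes. The largest fold change of any member in the 4 comparisons was 1.49-fold, and the 5 that passed lay between 1.19-fold and 1.38-fold. In 37 of the 40 tests the whole 95% interval of the fold change lay within 2-fold in either direction. With warmth the groups of libraries did not overlap for 3 of the 10 in knockdown heads (45.1% of all genes) and 3 in control heads (49.1%). With knockdown they did not overlap for 4 at 29 °C (31.8% of all genes) and 2 at 18 °C (28.8%). The members had between 217 and 2598 counts over the 12 libraries, and as few as 10 in 1 library.

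**Figure D1:**
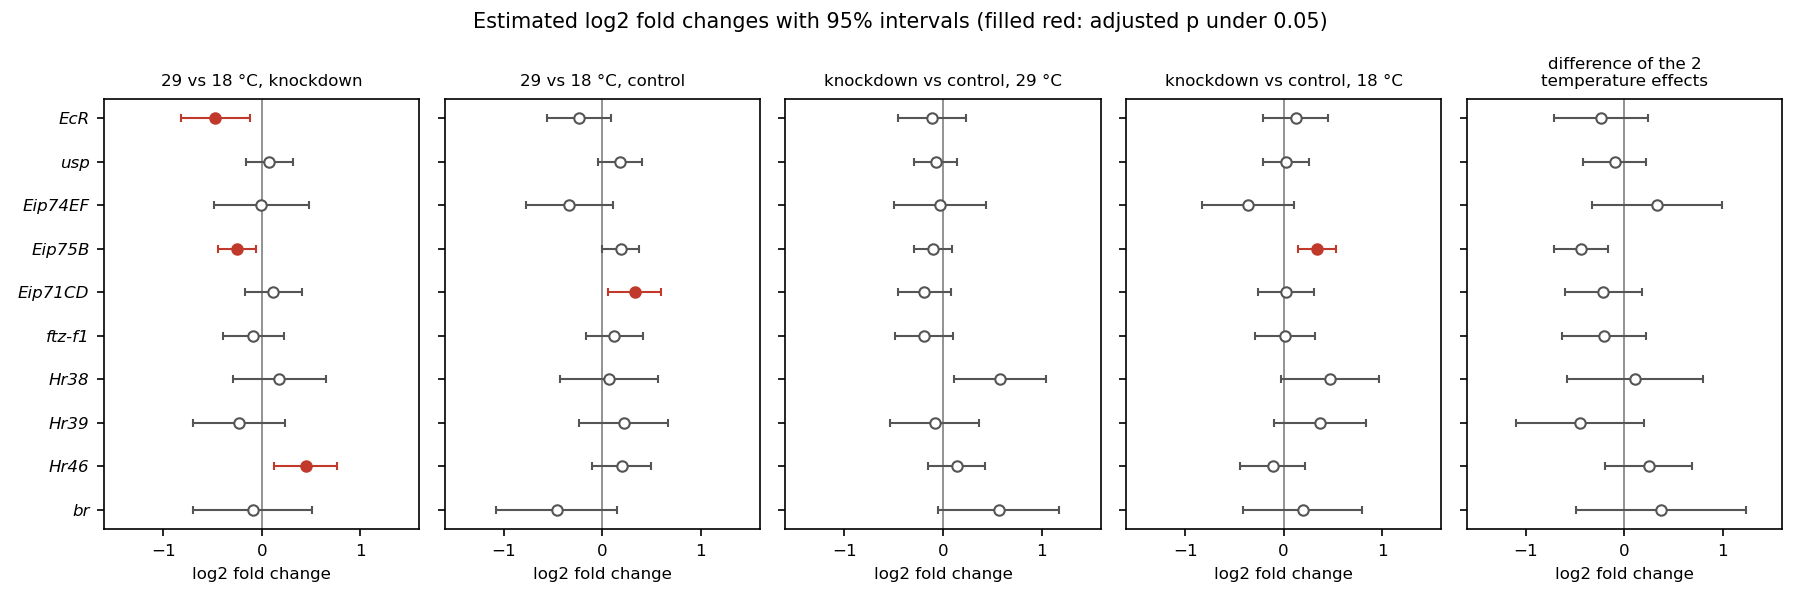
Log2 fold change of each of the 10 genes (horizontal axes, log2 scale) with its 95% interval in 5 comparisons: 29 °C over 18 °C in knockdown and in control heads, knockdown over control at 29 °C and at 18 °C, and the difference between both temperature effects. Filled red points passed the adjusted threshold of 0.05: EcR, Eip75B and Hr46 for temperature in knockdown heads, Eip71CD for temperature in control heads, and Eip75B for knockdown at 18 °C.

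EcR, the hormone-binding subunit of the receptor, was lower in the warm in knockdown heads. Its level was 12.7, 10.5 and 10.3 CPM in knockdown heads at 29 °C, against 17.0, 13.1 and 16.0 CPM in knockdown heads at 18 °C. All 3 warm libraries lay below all 3 cold ones, and the groups did not overlap at 45.1% of all tested genes. The log2 fold change was -0.47 (SE 0.166, edgeR adjusted p = 0.0324), a 1.38-fold fall. In control heads EcR stood at 12.6, 10.4 and 13.3 CPM at 29 °C, against 12.5, 16.0 and 13.9 CPM at 18 °C. There the groups overlapped, and the log2 fold change of -0.24 (95% interval -0.56 to 0.09, edgeR adjusted p = 0.251) did not pass.

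The temperature effects on EcR in both genotypes could not be separated. Their difference, knockdown minus control, was -0.23 on the log2 scale (95% interval -0.71 to 0.24, edgeR adjusted p = 0.729). Ordered by mean, EcR was highest in knockdown heads at 18 °C (15.4 ± 2.02 CPM, SD, n = 3 here and below), then in control heads at 18 °C (14.1 ± 1.78), control heads at 29 °C (12.1 ± 1.53) and knockdown heads at 29 °C (11.2 ± 1.31). No difference between neighbours in that order passed the test. The call in knockdown heads ended without knockdown 29 °C replicate 2 or 3 or knockdown 18 °C replicate 1 or 3 (edgeR adjusted p = 0.0841 to 0.128) and under DESeq2 (adjusted p = 0.134). Without the 3 libraries high in odorant-binding genes (replicate 1 of control heads at 29 °C, and replicates 2 and 3 of knockdown heads at 18 °C) its log2 fold change was -0.60 and its edgeR adjusted p = 0.0876, with 1 knockdown library left at 18 °C, assumed to vary like the others.

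The partner receptor gene usp showed no passing difference. It stood at 32.7 to 36.9 CPM in knockdown heads at 29 °C and at 34.5 to 39.7 CPM in control heads at 29 °C. At 18 °C it stood at 31.0 to 35.7 CPM in knockdown heads and at 27.9 to 36.8 CPM in control heads. The groups overlapped in all 4 comparisons. Warmth gave a log2 fold change of 0.08 in knockdown heads (95% interval -0.16 to 0.31) and of 0.18 in control heads (95% interval -0.04 to 0.40, edgeR adjusted p = 0.202). Without control 18 °C replicate 2, which at 36.8 CPM was the highest of its group, the value in control heads was 0.30 and passed (edgeR adjusted p = 0.0452). In the Release 6 RefSeq table usp overlaps Actn, a muscle and cytoskeletal actinin gene with 6418 counts to the 2013 of usp. Actn fell in the warm by 1.32 on the log2 scale in knockdown heads and by 1.30 in control heads. The other overlapping gene, CG4313, had 165 counts and went the other way, with log2 fold changes of 1.35 in knockdown heads (edgeR adjusted p = 0.00802) and 0.72 in control heads (edgeR adjusted p = 0.0778). Over the 12 libraries usp had r = -0.57 with Actn and 0.43 with CG4313. With no strand setting given, reads of these neighbours may not be fully told apart.

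Among the early genes, Eip75B, the E75 receptor that binds haem and restrains Hr46, had 2 passing differences, and they rest on the same 3 libraries. Its level was 45.2, 39.7 and 47.3 CPM in knockdown heads at 18 °C, against 33.1, 37.5 and 34.3 CPM in control heads at 18 °C. All 3 knockdown libraries lay above all 3 control libraries, and the groups did not overlap at 28.8% of all genes. The log2 fold change was 0.34 (SE 0.0939, edgeR adjusted p = 0.0174), a 1.26-fold rise. At 29 °C it stood at 35.6, 38.2 and 38.1 CPM in knockdown heads, against 42.2, 39.1 and 38.6 CPM in control heads. Here the knockdown libraries lay below the control ones, where 31.8% of genes had groups that did not overlap. The log2 fold change of -0.10 (95% interval -0.29 to 0.09, edgeR adjusted p = 0.532) did not pass.

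Read by temperature, these values gave opposite signs in the genotypes. In knockdown heads Eip75B was lower at 29 °C than at 18 °C (log2 fold change -0.25, SE 0.0939, edgeR adjusted p = 0.0429). In control heads all 3 libraries at 29 °C lay above all 3 at 18 °C, where 49.1% of genes had groups that did not overlap. The log2 fold change of 0.19 missed the threshold (SE 0.0914, edgeR adjusted p = 0.115). The difference between the temperature effects was -0.44 on the log2 scale (95% interval -0.71 to -0.16), with an unadjusted p of 0.00325 that did not pass over all genes (edgeR adjusted p = 0.0867). Of all genes 2.31% passed that test (1.39% with a higher and 0.917% with a lower value in knockdown heads). Over its alternatives the difference ranged from -0.50 to -0.39 and its adjusted p from 0.0633 to 0.384.

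Both Eip75B calls were close to the threshold. The rise with knockdown at 18 °C ended without replicate 1 or 3 of either group at 18 °C, with the compared groups alone, and under DESeq2 (adjusted p = 0.0509 to 0.124), its log2 fold change staying between 0.28 and 0.40 over all alternatives. Antennal marker sums were also higher in knockdown heads at 18 °C, with 4 of the 5 markers passing. All 4 genes listed as female-biased in heads (yolk protein genes and fit) rose with knockdown there as well, summing to 64094 to 95712 CPM in knockdown heads against 31509 to 64846 CPM in control heads, and the part of either list was not tested. Without the 3 libraries high in odorant-binding genes the log2 fold change was 0.36 (edgeR adjusted p = 0.137), with 1 knockdown library left at 18 °C, assumed to vary like the others. The fall in the warm in knockdown heads ended in 15 of 19 alternatives, among them the loss of any library of its groups except knockdown 18 °C replicate 2, and of 4 control libraries, replicates 2 and 3 at 29 °C and replicates 1 and 3 at 18 °C (edgeR adjusted p = 0.0524 to 0.186). It also ended with a replicate block (edgeR adjusted p = 0.0613), without the filter on low counts, with the compared groups alone, under DESeq2 (adjusted p = 0.197), and without either set of libraries that stood apart in odorant-binding genes or roX1.

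Eip74EF, which encodes an ETS-domain factor, stood at 5.99 to 9.54 CPM in knockdown heads at 29 °C and at 7.86 to 8.57 CPM in control heads at 29 °C. At 18 °C it stood at 7.07 to 8.76 CPM in knockdown heads and at 6.70 to 11.8 CPM in control heads. The groups overlapped in all 4 comparisons, and no difference passed (log2 fold changes from -0.36 to -0.00). Control heads at 18 °C spread most, with libraries at 11.2, 11.8 and 6.70 CPM.

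The gene br (broad) encodes a family of BTB zinc-finger factors needed for pupal development, and was the least counted of the members. It had 4.35, 3.24 and 4.90 CPM in knockdown heads at 29 °C, against 2.04, 3.00 and 3.18 CPM in control heads at 29 °C. The groups did not overlap, which held for 31.8% of genes, but each value rests on 10 to 23 reads, and the log2 fold change of 0.56 (SE 0.296, 95% interval -0.05 to 1.18, edgeR adjusted p = 0.232) did not pass. At 18 °C br had 4.60, 3.70 and 4.60 CPM in knockdown heads, against 3.26, 4.61 and 3.22 CPM in control heads. Warmth gave a log2 fold change of -0.09 in knockdown heads (SE 0.289, edgeR adjusted p = 0.836), where the groups overlapped. In control heads they did not, which held for 49.1% of genes, and the log2 fold change was -0.46 (SE 0.295, edgeR adjusted p = 0.232). In the Release 6 table br overlaps Mur2B, with 1440 counts to the 217 of br, and Mur2B passed in none of the 4 comparisons.

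Among the later receptors, Hr46, which in metamorphosis shuts off early genes and induces ftz-f1, was higher in the warm in knockdown heads. Its level was 17.4, 17.8 and 19.3 CPM in knockdown heads at 29 °C, against 15.7, 9.77 and 13.8 CPM in knockdown heads at 18 °C. All 3 warm libraries lay above all 3 cold ones, and the groups did not overlap at 45.1% of all tested genes. The lowest value of all 12 libraries, in knockdown 18 °C replicate 2, came from 29 reads. The log2 fold change was 0.45 (SE 0.154, edgeR adjusted p = 0.0288), a 1.36-fold rise. In control heads Hr46 had 15.7, 17.6 and 16.1 CPM at 29 °C, against 12.8, 15.2 and 15.01 CPM at 18 °C. The warm libraries again lay above the cold ones, where 49.1% of genes had groups that did not overlap. The log2 fold change of 0.20 did not pass (SE 0.144, edgeR adjusted p = 0.301).

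The difference between the temperature effects on Hr46 was 0.25 on the log2 scale (95% interval -0.19 to 0.69, edgeR adjusted p = 0.68). By mean the order was knockdown at 29 °C (18.2 ± 1.02 CPM), control at 29 °C (16.5 ± 0.986), control at 18 °C (14.4 ± 1.31) and knockdown at 18 °C (13.1 ± 3.02), and no difference between neighbours in it passed the test. The call in knockdown heads ended without knockdown 29 °C replicate 2 or 3 or knockdown 18 °C replicate 2 or 3 (edgeR adjusted p = 0.0532 to 0.142) and under DESeq2 (adjusted p = 0.115). Without the 3 libraries high in odorant-binding genes its log2 fold change was 0.21 (edgeR adjusted p = 0.528), again with 1 knockdown library at 18 °C and the spread taken from the other groups.

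The gene ftz-f1 encodes the receptor that gives prepupal cells the competence to answer the next hormone pulse, and it did not pass in any comparison. It ran from 20.7 to 26.1 CPM in knockdown heads at 29 °C, from 23.2 to 29.4 CPM in control heads at 29 °C, from 23.6 to 27.0 CPM in knockdown heads at 18 °C and from 21.6 to 31.4 CPM in control heads at 18 °C. All groups overlapped, and the log2 fold changes lay between -0.19 and 0.12. Its closest relative Hr39, which in female flies is needed to form the glands that store sperm, had means of 8.85 ± 2.52 CPM in knockdown heads at 29 °C and 9.11 ± 0.292 CPM in control heads at 29 °C. At 18 °C the means were 10.2 ± 2.48 CPM in knockdown heads and 7.68 ± 1.38 CPM in control heads. Overlap held in every Hr39 comparison, and the log2 fold changes of -0.23 to 0.37 did not pass.

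Hr38 was the member with the largest estimate, a higher level with knockdown that did not pass. It had 10.0, 7.44 and 14.7 CPM in knockdown heads at 29 °C, against 6.12, 7.39 and 7.30 CPM in control heads at 29 °C. The lowest knockdown library and the highest control library lay only just apart. The log2 fold change was 0.58 (SE 0.225, 95% interval 0.11 to 1.05, edgeR adjusted p = 0.0948). At 18 °C it had 10.8, 7.75 and 8.76 CPM in knockdown heads, against 7.06, 6.51 and 6.16 CPM in control heads, again with no overlap and a log2 fold change of 0.47 (SE 0.24, edgeR adjusted p = 0.227).

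Every one of the 6 knockdown libraries thus lay above every control library of the same temperature for Hr38. Groups did not overlap at 31.8% of all tested genes at 29 °C and at 28.8% at 18 °C, and the share with both was not counted. Without knockdown 29 °C replicate 2, the lowest of its group, the 29 °C value was 0.81 and passed (edgeR adjusted p = 0.0212). Warmth made no passing difference to Hr38 in either genotype, with log2 fold changes of 0.18 in knockdown heads (95% interval -0.29 to 0.65) and 0.07 in control heads (95% interval -0.42 to 0.57). In the Release 6 table Hr38 overlaps CG2617, which had 253 counts to the 475 of Hr38 and passed only for warmth in control heads, upward.

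Eip71CD, first described as ecdysone-induced and encoding an enzyme that repairs oxidised methionine, was higher in the warm in control heads. In knockdown heads it had 44.8, 41.8 and 47.7 CPM at 29 °C, against 41.9, 49.8 and 33.3 CPM at 18 °C, with a log2 fold change of 0.12 (95% interval -0.17 to 0.41, edgeR adjusted p = 0.54). Eip71CD had 48.5, 52.1 and 51.7 CPM in control heads at 29 °C, against 36.4, 49.3 and 33.2 CPM in control heads at 18 °C. Control 18 °C replicate 2 lay above the lowest warm library, so the groups overlapped. The log2 fold change was 0.33 (SE 0.129, edgeR adjusted p = 0.0491), a 1.26-fold rise, and without that replicate it was 0.54 (edgeR adjusted p = 0.00226). At 29 °C the knockdown libraries lay below the control ones, where 31.8% of genes had groups that did not overlap. The knockdown log2 fold change of -0.19 there did not pass (edgeR adjusted p = 0.373).

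The Eip71CD call stood at the threshold and ended in 10 of 19 alternatives. These were the loss of any library of either group at 29 °C or of control 18 °C replicate 1 or 3 (edgeR adjusted p = 0.0536 to 0.191), median-of-ratios scaling (edgeR adjusted p = 0.0513) and DESeq2 (adjusted p = 0.109). The test of the difference between the temperature effects in both genotypes did not pass (-0.21 on the log2 scale, 95% interval -0.61 to 0.18, edgeR adjusted p = 0.695). For that test of the difference 0 of the 10 genes passed by edgeR, with 1 at an unadjusted p under 0.05. DESeq2 gave an adjusted p for 3 of them (usp, Eip75B and Eip71CD), of which 0 passed, and none for the other 7.

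**Figure D2:**
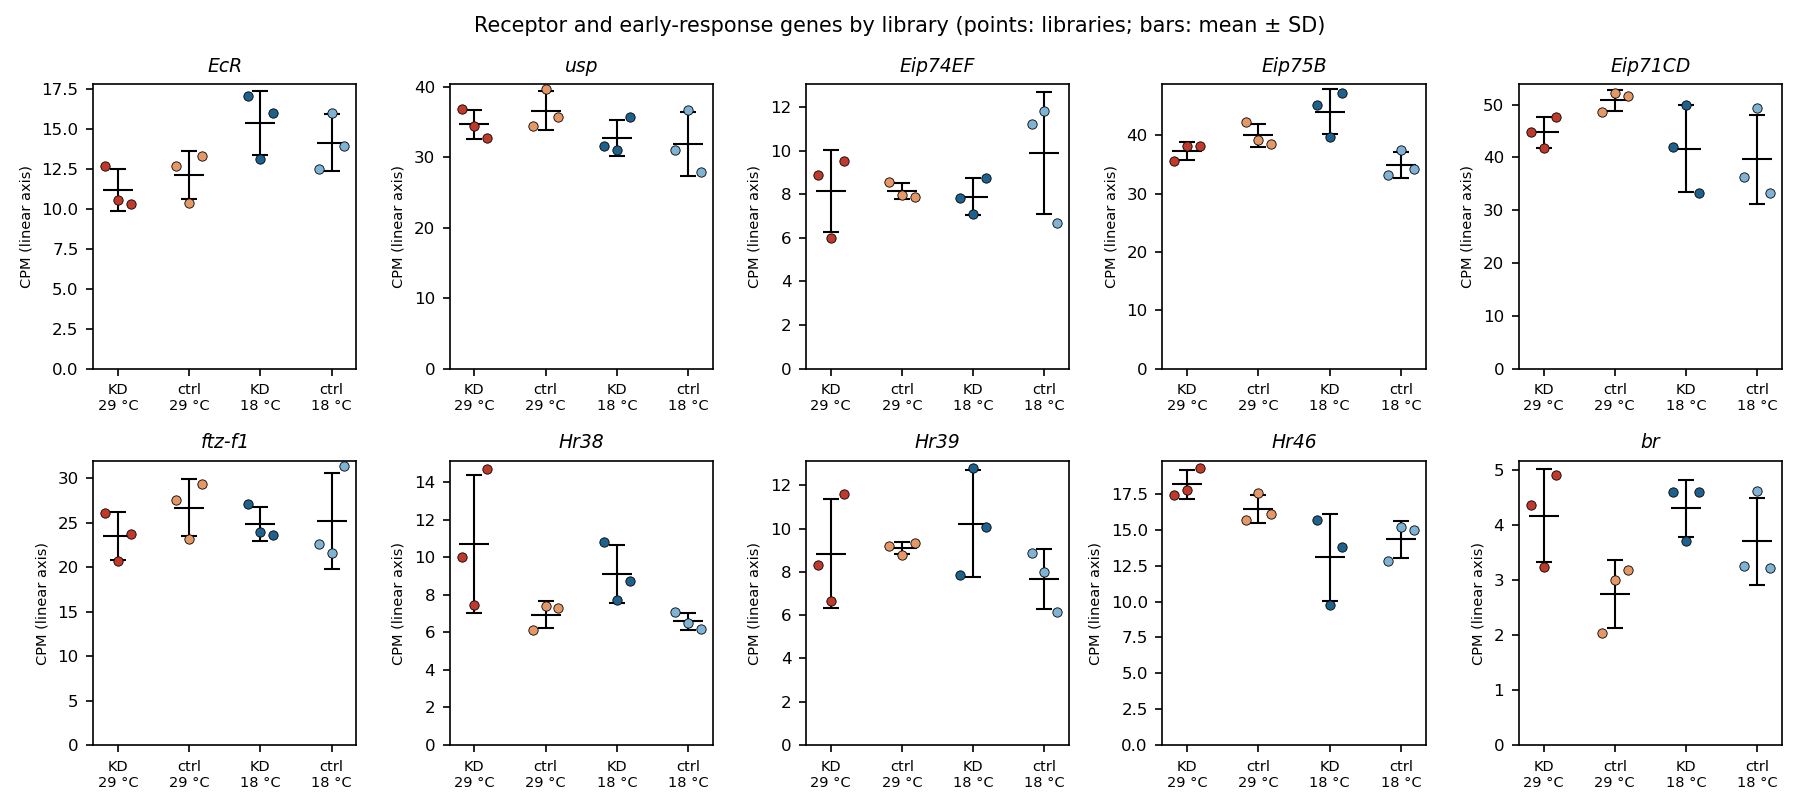
Level of each of the 10 genes in every library (vertical axes, CPM on a linear scale from 0), in knockdown (KD) and control (ctrl) heads at 29 °C and 18 °C, with the mean and SD of 3 libraries per group. Group ranges overlap in most panels; Eip75B is highest in knockdown heads at 18 °C (39.7 to 47.3 CPM) and Hr38 is higher in knockdown than in control heads at each temperature.

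Genes of hormone supply were read next to the 10. The hormone is made by a chain of P450 enzymes, taken into cells by a transporter and inactivated by another P450, and 6 of 14 listed genes of these steps had enough reads. With warmth 4 of the 6 fell and 0 rose in knockdown heads (median log2 fold change -0.83), and 4 fell and 1 rose in control heads (median -0.78). Of all genes 18.9% fell and 16.6% rose in knockdown heads (median -0.01), and 19.8% fell and 18.2% rose in control heads (median 0.00). Oatp74D, the ecdysone importer, had 9.27, 11.5 and 10.1 CPM in knockdown heads at 29 °C, against 26.5, 31.7 and 21.0 CPM in knockdown heads at 18 °C, a 2.51-fold fall (edgeR adjusted p = 1.92e-06). In control heads it had 12.2, 15.4 and 12.5 CPM at 29 °C, against 30.2, 33.8 and 28.4 CPM at 18 °C, a 2.32-fold fall (edgeR adjusted p = 1.36e-06). No warm library overlapped a cold one in either genotype, which held for 45.1% of genes in knockdown heads and 49.1% in control heads.

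Cyp18a1, the 26-hydroxylase that inactivates the hormone, fell to 11.7 ± 1.51 CPM in knockdown heads at 29 °C, against 24.8 ± 4.33 CPM at 18 °C (2.12-fold, edgeR adjusted p = 2.43e-05). It fell to 14.8 ± 2.10 CPM in control heads at 29 °C, against 27.9 ± 3.79 CPM at 18 °C (1.88-fold, edgeR adjusted p = 5.34e-05). Npc1a, a sterol transport protein needed to supply the precursor, fell 1.49-fold in knockdown heads (edgeR adjusted p = 7.44e-05) and 1.57-fold in control heads (edgeR adjusted p = 1.12e-05). These falls of Oatp74D, Cyp18a1 and Npc1a passed in all 19 alternatives in both genotypes. The remaining lowered gene was the synthesis P450 phm, with 2 counts over the knockdown libraries at 29 °C against 27 at 18 °C, and 6 counts over the control libraries at 29 °C against 48 at 18 °C. The raised gene in control heads was the P450 Cyp6t3, with 14, 19 and 16 counts at 29 °C against 1, 13 and 4 counts at 18 °C. The gene phm had enough reads for the test only through libraries at 18 °C, and Cyp6t3 only with the control libraries at 29 °C. Each was thus tested through the groups where it was high, and these 2 calls are no evidence of a change. Both genes are part of the counts and medians given for this list. Knockdown changed 0 of the 6 at either temperature by edgeR and by DESeq2, with 2 at an unadjusted p under 0.05 at 29 °C and 0 at 18 °C. At 29 °C 1 passed, downward, without knockdown 29 °C replicate 3 or with the compared groups alone. Npc1a, the most counted of them, had a knockdown log2 fold change of 0.16 at 29 °C (95% interval -0.05 to 0.36) and 0.08 at 18 °C (95% interval -0.11 to 0.27). Muscle and glial marker sums fell in the same warm groups, and their part was not tested.

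Other genes named for induction by ecdysone were tested for 11 of 16. With warmth 7 fell and 0 rose in knockdown heads (median log2 fold change -0.52, against -0.01 for all genes, of which 18.9% fell and 16.6% rose). In control heads 6 fell and 1 rose (median -0.46, against 0.00 for all genes, of which 19.8% fell and 18.2% rose). Eip93F, a factor of late metamorphosis, had 59.7 ± 2.00 CPM in knockdown heads at 29 °C, against 90.9 ± 5.66 CPM at 18 °C (edgeR adjusted p = 1.74e-05), and 66.2 ± 7.03 CPM in control heads at 29 °C, against 90.9 ± 4.38 CPM at 18 °C (edgeR adjusted p = 2.5e-04). ImpE1, first found as an ecdysone-induced transcript of imaginal discs, was called lower, with 26 counts over the knockdown libraries at 29 °C against 85 at 18 °C. It had enough reads for the test only with the libraries at 18 °C, where it was high, so its call is no evidence of a fall. Edg91, described below, had enough reads only through the knockdown libraries at 18 °C, where it was high. Both ImpE1 and Edg91 are part of the counts and medians given for this list. The factor gene Sox14 was 1.97-fold lower in knockdown heads (edgeR adjusted p = 1.38e-04), and Eip63F-1, which encodes a calcium-binding protein, was 1.59-fold lower in control heads (edgeR adjusted p = 3.07e-05). In control heads 4 fell without replicate 2 at 29 °C or replicate 3 at 18 °C of those heads, and 3 fell under DESeq2. In knockdown heads 4 fell without the 3 libraries high in odorant-binding genes.

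ImpL3, listed as Ldh (lactate dehydrogenase) in the RefSeq table, was the 1 gene of this list that passed the test of the difference between the temperature effects. It had 19.7, 26.2 and 19.3 CPM in knockdown heads at 29 °C, against 31.4, 39.4 and 36.8 CPM in knockdown heads at 18 °C. In control heads it had 8.77, 10.8 and 10.3 CPM at 29 °C, against 40.7, 46.3 and 42.1 CPM at 18 °C. Warm libraries lay below cold ones in both genotypes, where 45.1% of genes in knockdown heads and 49.1% in control heads had groups that did not overlap. The fall was larger in control heads, 4.33-fold (edgeR adjusted p = 2.32e-10), with a difference between the temperature effects of 1.41 on the log2 scale (SE 0.194, edgeR adjusted p = 2.07e-04). At 29 °C it was 2.21-fold higher in knockdown heads (edgeR adjusted p = 1.68e-05). Eip55E, listed as Cth, an enzyme of cysteine synthesis, was higher in knockdown heads at 29 °C (1.42-fold, edgeR adjusted p = 0.00374) and at 18 °C (1.37-fold, edgeR adjusted p = 0.00728, lost without knockdown 18 °C replicate 1 at 0.0551). With knockdown 2 of the 11 rose at each temperature and 0 fell, where 7.14% of all genes rose at 29 °C and 6.63% at 18 °C. The other gene raised at 18 °C was Edg91, a cuticle-type protein gene, with 41 counts over the knockdown libraries against 24 over the control ones. It had enough reads for the test only through the knockdown libraries at 18 °C, the group where it was high. Its call is therefore no evidence of a rise. The Edg91 call (edgeR adjusted p = 0.0214) ended without replicate 3 of the knockdown or replicate 1 or 3 of the control libraries at 18 °C, at 0.0591 to 0.201. It also ended without the filter on low counts (edgeR adjusted p = 0.0811) and under DESeq2 (adjusted p = 0.19). At 29 °C the 2 rises were joined by 2 falls without control 29 °C replicate 2.

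**Figure D3:**
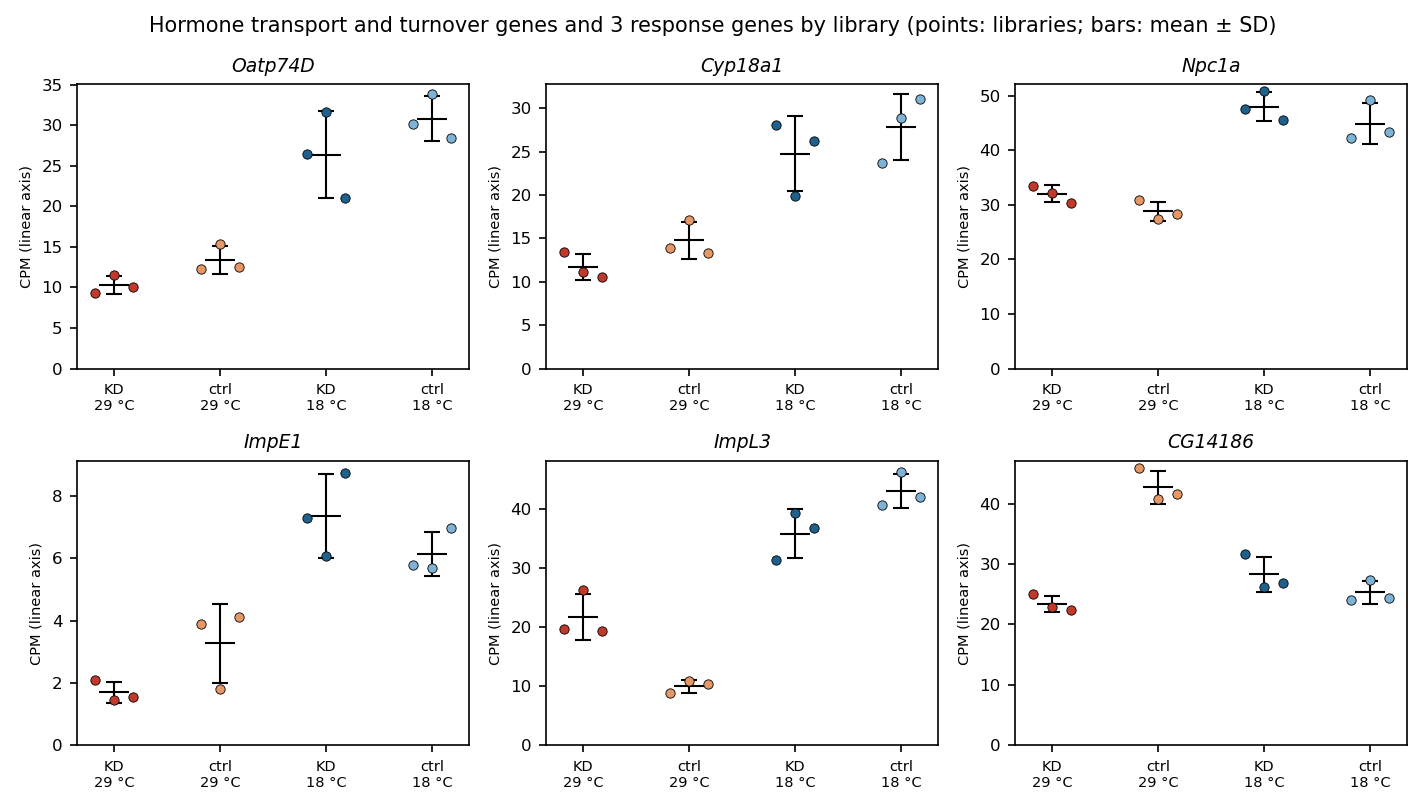
Level in every library (vertical axes, CPM on a linear scale from 0) of Oatp74D, Cyp18a1 and Npc1a, which import, inactivate and supply the hormone, and of ImpE1, ImpL3 and CG14186, in knockdown (KD) and control (ctrl) heads, with mean and SD of 3 libraries. The warm groups lie below the cold ones for the first 5 genes, while CG14186 is highest in control heads at 29 °C (40.7 to 45.9 CPM). ImpE1 had enough reads for the test only with the cold libraries, where it was high, so its call is no evidence of a fall.

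Of the other nuclear receptors 9 of 14 were tested. With warmth 3 fell and 1 rose in knockdown heads (median log2 fold change -0.28), where 35.5% of all genes passed. In control heads 2 fell (median -0.18), where 38.0% of all genes passed. In knockdown heads kni and knrl, sister receptors without a ligand-binding domain, were 1.97-fold and 2.53-fold lower (edgeR adjusted p = 0.00218 and 0.00654), svp, the COUP-TF homologue, was 1.30-fold lower (edgeR adjusted p = 0.0118) and ERR, the oestrogen-related receptor that drives glycolytic genes in larvae, was 1.52-fold higher (edgeR adjusted p = 0.00954). The fall of knrl rests on few reads, 28 counts over the knockdown libraries at 29 °C against 52 at 18 °C. In control heads svp was 1.28-fold lower (edgeR adjusted p = 0.0121) and kni 1.45-fold lower (edgeR adjusted p = 0.0493).

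These receptor counts depended on single libraries. Of the receptors in control heads 1 was called without control 29 °C replicate 1 or 2, any knockdown library at 18 °C or replicate 1 of its controls, and 0 without control 18 °C replicate 2 or under DESeq2. In knockdown heads 0 passed without the 3 libraries high in odorant-binding genes, and ERR also lost its call without knockdown 18 °C replicate 3 (edgeR adjusted p = 0.0714). Knockdown changed 0 of the 9 at either temperature by edgeR and DESeq2, with 1 at an unadjusted p under 0.05 at 29 °C and 0 at 18 °C. At 29 °C 1 passed, downward, without control 29 °C replicate 2. The knockdown log2 fold change of svp, the most counted, was -0.10 at 29 °C (95% interval -0.33 to 0.14) and -0.07 at 18 °C (95% interval -0.30 to 0.16).

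Of 9 tested partners and coregulators of these receptors, 1 rose and 2 fell with warmth in knockdown heads (median log2 fold change -0.08), where 35.5% of all genes passed. In control heads 2 rose and 1 fell (median 0.06), where 38.0% of all genes passed. The gene raised in both genotypes was mbf1, a bridging factor known to bind Ftz-f1. It had 97.9 ± 6.16 CPM in knockdown heads at 29 °C, against 51.0 ± 2.02 CPM at 18 °C (edgeR adjusted p = 3.46e-08), and 104 ± 4.42 CPM in control heads at 29 °C, against 62.4 ± 4.24 CPM at 18 °C (edgeR adjusted p = 4.17e-07). The corepressor gene Smr fell 1.27-fold in knockdown heads (edgeR adjusted p = 0.0159), and DopEcR, a membrane receptor for dopamine and ecdysone, fell 1.30-fold in knockdown heads (edgeR adjusted p = 0.00817) and 1.22-fold in control heads (edgeR adjusted p = 0.033). The corepressor gene alien rose 1.27-fold in control heads (edgeR adjusted p = 0.0155). Only the mbf1 call was left in control heads without control 29 °C replicate 1 or under DESeq2, and in knockdown heads without knockdown 29 °C replicate 1. Under DESeq2 Smr lost its call for warmth in knockdown heads (adjusted p = 0.0753).

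Knockdown left mbf1 1.23-fold lower (edgeR adjusted p = 0.025) and alien 1.33-fold higher (edgeR adjusted p = 0.0154) at 18 °C, and Smr 1.24-fold lower at 29 °C (edgeR adjusted p = 0.0483). Of all genes 14.1% passed with knockdown at 18 °C and 14.7% at 29 °C. At 18 °C the 2 calls were 1 without knockdown 18 °C replicate 1 or 3 or control 18 °C replicate 2, and 0 without knockdown 18 °C replicate 2 or control 18 °C replicate 1. They were also 0 under DESeq2 (adjusted p = 0.0743 for mbf1 and 0.0768 for alien). The Smr call at 29 °C ended without any 1 of 9 libraries, all but knockdown 29 °C replicate 2 and control 18 °C replicates 1 and 2 (edgeR adjusted p = 0.0533 to 0.198). It also ended with a replicate block (edgeR adjusted p = 0.0615) and under DESeq2 (adjusted p = 0.201).

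Because Hr38 is induced by neuronal activity in flies, 5 other genes of that kind were read. With warmth 2 fell and 0 rose in knockdown heads (median log2 fold change -0.27), and 2 fell and 1 rose in control heads (median 0.13). Of all genes 18.9% fell and 16.6% rose in knockdown heads, and 19.8% fell and 18.2% rose in control heads. The zinc-finger factor gene sr had 11.0 ± 1.87 CPM in knockdown heads at 29 °C, against 20.3 ± 2.18 CPM at 18 °C (edgeR adjusted p = 5.22e-04), and 8.41 ± 2.77 CPM in control heads at 29 °C, against 12.6 ± 0.436 CPM at 18 °C (edgeR adjusted p = 0.0209). At 18 °C sr was 1.62-fold higher in knockdown heads (edgeR adjusted p = 0.00861, and 0.0693 without knockdown 18 °C replicate 3). The factor gene cbt was 1.31-fold lower in the warm in knockdown heads (edgeR adjusted p = 0.00383) and 1.19-fold lower in control heads (edgeR adjusted p = 0.0445).

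CG14186 went apart from Hr38. It had 25.0, 22.8 and 22.4 CPM in knockdown heads at 29 °C, against 45.9, 40.7 and 41.6 CPM in control heads at 29 °C. At 18 °C it had 31.6, 26.3 and 26.9 CPM in knockdown heads, against 24.1, 27.4 and 24.4 CPM in control heads. It rose 1.68-fold with warmth in control heads (edgeR adjusted p = 5.94e-06) and was 1.82-fold lower with knockdown at 29 °C (edgeR adjusted p = 4.68e-06). The difference between the temperature effects was -1.02 on the log2 scale (SE 0.153, edgeR adjusted p = 5.13e-04), and all of these calls held in every alternative. At 29 °C cbt and Jra, a subunit of AP-1, were also 1.24-fold and 1.22-fold lower in knockdown heads (edgeR adjusted p = 0.0401 and 0.0482). Thus 3 of the 5 fell and 0 rose there, where 7.56% of all genes fell. CG14186 alone was called without knockdown 29 °C replicate 1 or 3, without control 29 °C replicate 3, with a replicate block or under DESeq2. In control heads both fallen genes, sr and cbt, missed the threshold without replicate 3 at 29 °C or replicate 2 at 18 °C of those heads. Under DESeq2 both missed it too (adjusted p = 0.0627 and 0.0967).

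**Figure D4:**
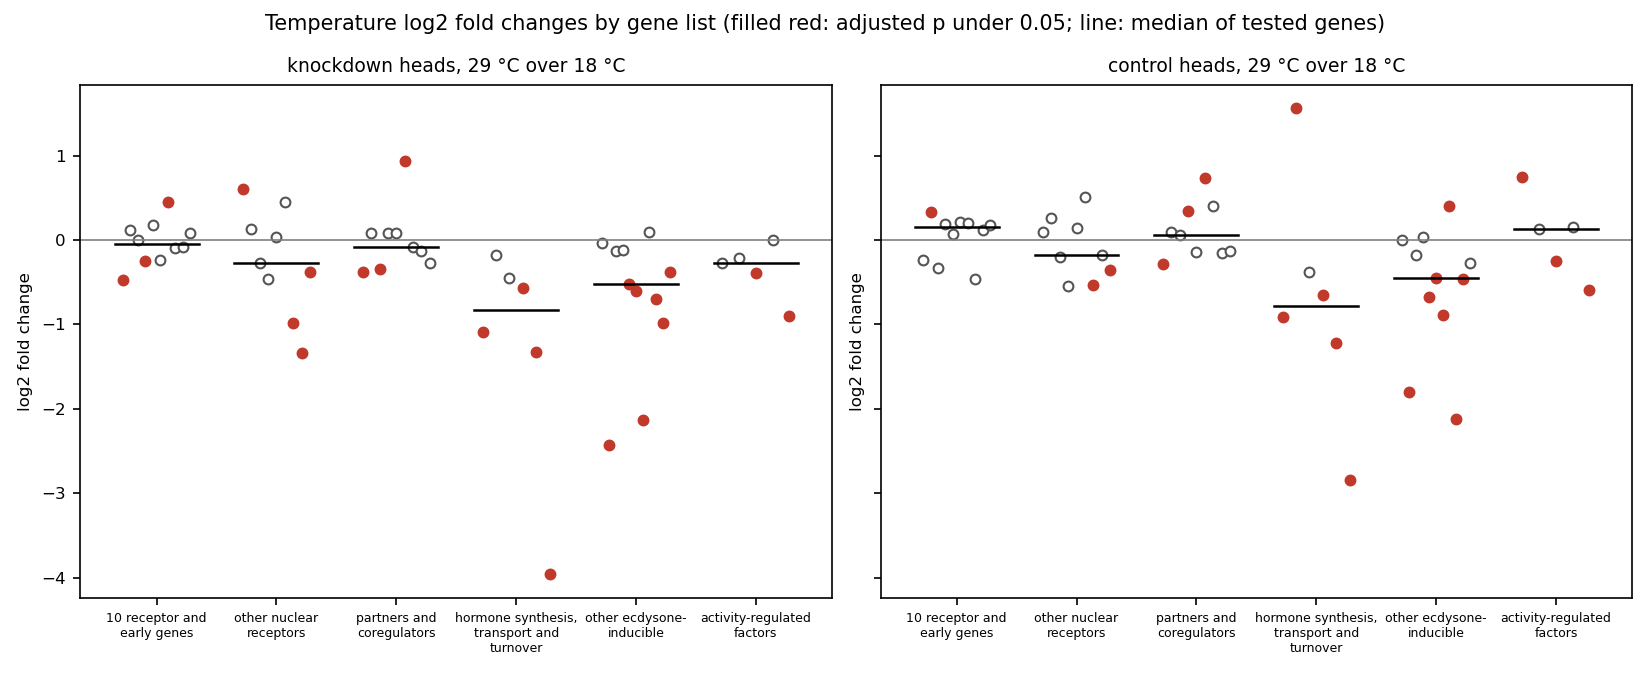
Fitted log2 fold change of 29 °C over 18 °C (vertical axis) for each tested gene of 6 lists, in knockdown heads (left) and control heads (right). Filled red points passed the adjusted threshold of 0.05 and black lines are list medians: the 10 genes lie near 0 in both (-0.04 and 0.15), while hormone synthesis, transport and turnover has medians of -0.83 and -0.78. That list includes phm and Cyp6t3, which were tested only through the groups where they were high. The same holds for ImpE1 and Edg91 in the list of other ecdysone-inducible genes.

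Patterns across the 12 libraries were compared by Pearson's r of log2 CPM with 7781 other genes that averaged at least 5 CPM, as a description only, since all points share the libraries and their depth. The closest to EcR were CG9649, the Toll receptor gene Tl and the purine synthesis gene AdSS (r = 0.91 to 0.92, and 0.80 to 0.85 within groups). The closest to Eip75B were the Nimrod gene NimB2 (r = 0.96, and 0.88 within groups), the acyl-CoA synthetase gene bgm and CG5065. Hr46 was closest to CG12084, to Opa1, a gene of mitochondrial fusion, and to CG16817 (r = 0.87 to 0.91), and Eip71CD to Obp83ef, CG18004 and CG12006 (r = 0.85 to 0.87). For usp the closest gene was CG3407 (r = 0.92), for ftz-f1 CG34383 (r = 0.89), for br Su(P) (r = 0.91), for Hr38 the receptor tyrosine kinase gene Alk (r = 0.86) and for Hr39 Sra-1 (r = 0.83). Eip74EF was closest to CG33722 and CG18749, which had the same r of 0.84. They also had the same r within groups (0.91) and the same mean level (21.0 CPM), so they may hold the same reads. Among the 45 pairs of members the highest r was 0.70, between Hr38 and br, and it was also 0.70 within groups.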

How the data were processed

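The authors deposited whole-number counts of reads per gene for 12 libraries, not normalized. STAR, TopHat2 and the build dm3 were used, per the submitters' processing notes. The read counter, the annotation and strandedness were not given in those sources. The 2 deposited H3K4me3 peak lists were not used, because no dm3 annotation was at hand to place peaks on these genes.

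The analysis used R 4.3.3 and edgeR 4.0.16: genes kept by filterByExpr (minimum count 10, minimum total 15), TMM scaling, and 1 quasi-likelihood model of the 4 groups fitted to all 12 libraries, with Benjamini-Hochberg adjustment over 9056 genes. SEs were taken from the F statistic, and 95% intervals use the model's degrees of freedom. Log2 CPM used a prior count of 2. DESeq2 1.42.0 was 1 of 19 alternatives, with other scaling, no filter, the compared groups alone, a replicate block and left-out libraries. The model was tested on simulated counts.

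The 10 members and 5 further lists were chosen with earlier results of these data known. All 10 members are named in every comparison. List genes were named as up to 3 that passed, by smallest adjusted p, or the highest mean where none passed, and 3 genes most like each member were sought. Values of svp in knockdown heads, phm, Cyp6t3 and other low-count genes were added after being seen. Alien was matched as alien, and Trp53inp was not matched. Names came from RefSeq Release 6. Its coordinates were used only to find genes that overlap the members, and that release is not the dm3 build of the processing notes.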

Additional observations from a re-analysis of the deposited data

Results flagged for a closer look

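Temperature effects on 3 genes were flagged, CG14186 and ImpL3 by the test of the difference between genotypes and Eip75B only by the order of its libraries. For Eip75B every library at 29 °C lay below every library at 18 °C in knockdown heads and above in control heads. Groups did not overlap at 45.1% of all tested genes in knockdown heads and at 49.1% in control heads. The share with opposite directions was not counted, and the members and list genes were searched for this pattern. The difference between the temperature effects was -0.44 on the log2 scale (edgeR adjusted p = 0.0867), so its test over all genes did not pass. For CG14186 the difference was -1.02 (edgeR adjusted p = 5.13e-04), passing in all 18 alternatives. For ImpL3 it was 1.41 (edgeR adjusted p = 2.07e-04), passing in the 17 alternatives that gave an adjusted p, and DESeq2 gave none. Groups of 3 libraries were too small for the check of single outlying libraries.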

How the results depend on the processing

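Each call among the 10 genes was lost in some alternative, none changed sign among the 5, and calls gained numbered 3 (usp in 2 and Hr38 in 1). The 1 call for warmth in control heads became 0 under median-of-ratios scaling and under DESeq2, 2 without the 2 libraries lowest in the male RNA roX1 within their groups (control 18 °C replicate 2 and knockdown 29 °C replicate 1), and 0 to 2 when 1 library was left out. The 3 calls for warmth in knockdown heads became 0 under DESeq2 and without the 3 libraries high in odorant-binding genes, and 0 to 3 with 1 library left out. The 0 calls for knockdown at 29 °C became 0 to 1 with 1 library left out. The 1 call at 18 °C became 0 with the compared groups alone, under DESeq2 and without the 3 libraries, and 0 to 1 with 1 library left out. No member passed the test of the difference in the 17 alternatives fitted with edgeR, and DESeq2 gave an adjusted p for 3 members, of which none passed.

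Over all genes, leaving out the 3 libraries gave 1854 calls against 3216 for warmth in knockdown heads, 559 against 1279 for knockdown at 18 °C and 80 against 209 for the difference. Without the filter on low counts the difference gave 423. For knockdown at 29 °C DESeq2 gave 884 against 1332 and leaving out 1 library 873 to 1395, and for the difference leaving out 1 library gave 122 to 250. The cause was not tested.

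Deviations of same-numbered libraries correlated at r = -0.07 to 0.03, so no strong effect shared by replicate number was seen. Such values cannot show whether libraries were handled in matched sets. With a replicate block Eip75B lost its call for warmth in knockdown heads (log2 fold change -0.25, edgeR adjusted p = 0.0613), and the other 4 calls among the 10 genes held. Depth limits br most, with 10 to 34 reads per library.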

Other observations

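Several genes of the pathway were at or near the limit of detection in these heads. Of the 14 genes of hormone synthesis, transport and turnover, spo, dib and Eo had no read in any library, where a count of 0 allows up to 0.407 to 1.01 CPM, depending on the library, if 3 counts are taken as the limit (counting error only). The synthesis genes nvd, spok, sro, sad and shd had 9, 20, 22, 41 and 60 counts over all 12 libraries and were not tested. Among the nuclear receptors tll had no read, and eg, dsf, Hr83 and Hr4 had 15, 18, 24 and 30 counts. The exporter gene E23 was tested with 229 counts and did not pass in any comparison.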
